A study of Mus musculus with 34 samples.

Results

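The data described here are the effect of losing p107 in the mouse fetal liver when the 2 other pocket proteins are already missing: 6 arrays of livers without Rb1, p107 and p130 (the triple knockout, Rb1;p107;p130 TKO) were compared with 9 arrays of livers without Rb1 and p130 (Rb1;p130 DKO), 15 of the 34 arrays of the series. The arrays were chosen by the genotype in their titles and not by any measured value. Both groups lack Rb1 and p130, so p107, the product of the gene Rbl1, is the only labelled difference. Total RNA came from whole, unsorted, untreated livers. The sample labels put them at embryonic day 14.5, and the series design gives a range that starts a day earlier. A further contrast with p130 absent but Rb1 present, 6 p107;p130 DKO arrays against 3 p130 KO arrays, shares no array with the first. The alleles, any Cre driver and the strain background are not given in the sources used here, nor is whether each array stands for its own fetus. The p-values below therefore measure only the spread between these samples, which may be technical.

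Pocket proteins restrain cell division through the E2F transcription factors they bind. Rb1 binds mainly the activating E2Fs, while p107 and p130 pair with E2F4 and E2F5 and, with the MuvB proteins, form the DREAM complex that silences cell cycle genes in resting cells. At this stage the liver is the main site of red cell production, most of its cells are erythroid precursors that divide and then leave the cell cycle, and hepatocyte precursors and macrophages make up much of the rest. Loss of Rb1 alone is known to disturb that final maturation.

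The values are MAS5 signals, a linear brightness per probe set (a group of short probes for 1 transcript). They were transformed to log2(signal + 32), each gene was represented by its brightest probe set, and 12723 genes were tested with limma. A log2 change below is triple minus Rb1;p130 double knockout on that scale, with its standard error (SE), and the threshold for a call was 0.05 after Benjamini-Hochberg adjustment over all genes. On this scale the change of dim genes is understated.

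A few facts of the arrays bear on the results. On the first principal component of the 15 arrays, which carried 20.2% of their variance, 0.0127% of the spread lay between the 2 genotypes. Between 3 array groups, inferred here from the signal difference between the 2 brightest probe sets of each gene, lay 56.8% of it. The groups were formed from signals of these same arrays, so part of their share is built in. On component 2 (14.2% of the variance) the genotype and array group shares were 0.563% and 44.4%. On component 3 (12.7% of the variance) they were 14.2% and 46.9%. No label names these groups. The 3 array groups held 5, 0 and 4 of the Rb1;p130 DKO arrays and 1, 2 and 3 of the triple knockout arrays. Over all genotypes the second group held only 1 array with p107, a wild type. A block on these groups, used below, is therefore partly confounded with p107 loss. Array 9 of the Rb1;p130 DKO had the lowest median correlation with the other arrays, 0.945. Xist marked 5 of 9 and 4 of 6 arrays as female.

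The targeted genes were examined first. Rbl1 read 2414, 1603, 1739, 1334, 1306, 2693, 2713, 2414 and 2484 on Rb1;p130 DKO arrays 1 to 9, and 98.5, 56.9, 139.4, 91.4, 70.6 and 69.1 on triple knockout arrays 1 to 6. The groups stood far apart, and no array went against its label. The mean signal was 2078 ± 577 (SD, n = 9) against 87.6 ± 29.6 (SD, n = 6), a change of -4.12 ± 0.18 (SE, 17.4-fold lower, limma adjusted p = 1.09e-17). Of the 4 Rbl1 probe sets, 3 were lower at an unadjusted p under 0.05, and the fourth, the dimmest, read 19.6 and 19.4 on average in the 2 groups. Rb1 itself ran from 756 to 1746 in the Rb1;p130 DKO and from 766 to 1467 in the triple knockout, against a mean of 7435 ± 2334 (SD, n = 2) in wild type. Rbl2, the gene of p130, ran from 151 to 264 and from 127 to 265, against 345 ± 6.84 (SD, n = 2) in wild type. Neither differed between the groups beyond the spread (log2 change -0.27 ± 0.16 and -0.13 ± 0.17, adjusted p = 0.888 and 0.956). Where the probes lie relative to the deleted parts is not given in the sources used here.

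**Figure D1:**
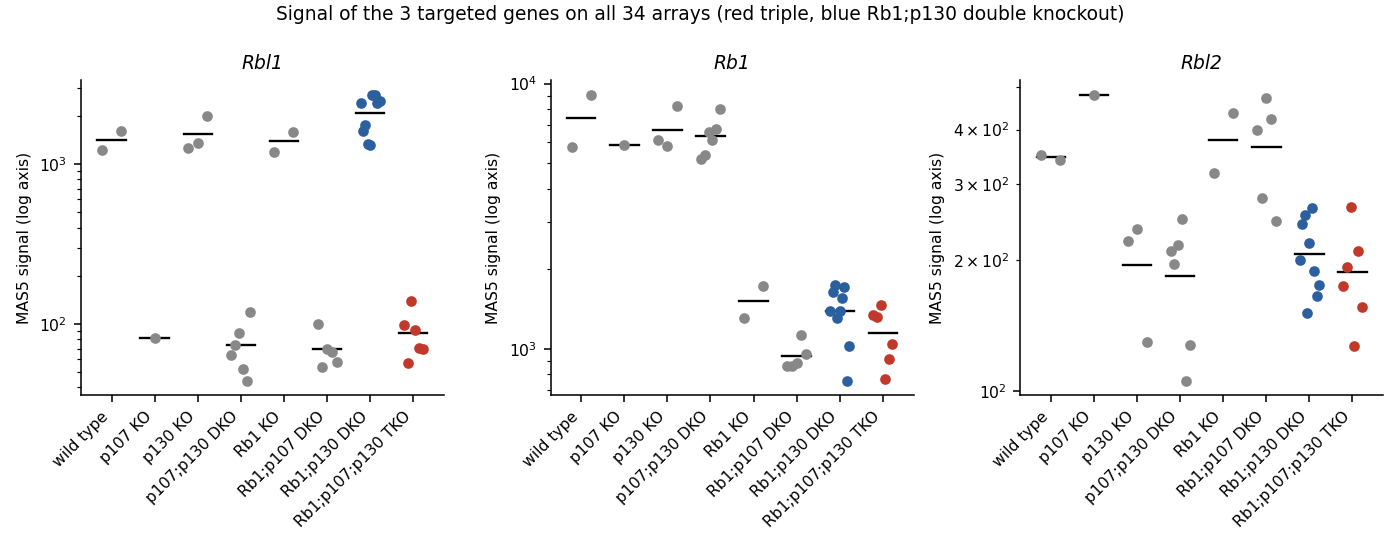
MAS5 signal (log axis) of Rbl1, Rb1 and Rbl2 on each of the 34 arrays by genotype; a point is 1 array and a bar the group mean. Rbl1 sat between 56.9 and 139.4 on the 6 triple knockout arrays and between 1306 and 2713 on the 9 Rb1;p130 DKO arrays, while Rb1 and Rbl2 overlapped between those groups.

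Beyond Rbl1, the livers with and without p107 were close to each other across the genome. Called genes numbered 3 of 12723 (0.0236%), and all 3 were lower without p107: Rbl1, Serinc3 and Ccne1. No gene was called higher (0%). At an unadjusted p under 0.05 limma found 692 genes (5.44%), 319 higher (2.51%) and 373 lower (2.93%). The median change over all genes was -0.00099, the median SE 0.157, and 49.8% of genes had a higher mean in the triple knockout. The 95% interval of the change lay inside 1.5-fold for 71.9% of genes and inside 2-fold for 96.1%. For 6 genes (0.0472%) no triple knockout array overlapped any Rb1;p130 DKO array, all 6 lower: Rbl1, Ccne1, Clcn2, Pzp, Tmem208 and Tspoap1. The share of genes that would separate so with no difference between the groups was not worked out. Clcn2, Pzp, Tmem208 and Tspoap1 were not called, here or in any of the 31 other settings run. Their lowest limma adjusted p in those settings ran from 0.0893 to 0.338. The count of calls moved with the setting. It was 17 (0.134%; 9 higher, 8 lower) with the inferred array groups as a block, 8 with estimated array weights, 1 when only the 15 arrays were fitted, 8 without Rb1;p130 DKO array 9 and 5 without Rb1;p130 DKO array 7.

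Ccne1 encodes cyclin E1, the partner of CDK2 that drives entry into S phase and a classical E2F target. It read 4080, 3329, 3586, 3753, 3605, 3431, 3599, 3703 and 4150 on the 9 Rb1;p130 DKO arrays and 2426, 2543, 2443, 2789, 2871 and 2992 on the 6 triple knockout arrays. Every triple knockout array lay below every Rb1;p130 DKO array. The means were 3693 ± 272 (SD, n = 9) and 2678 ± 239 (SD, n = 6), a change of -0.46 ± 0.09 (SE, 1.38-fold lower, limma adjusted p = 0.0368). In whole tissue, fewer cells that make a transcript and less of it per cell cannot be told apart, here and below. Its second probe set had a change of -0.56 ± 0.29 (SE), which missed an unadjusted p of 0.05. The size of the change held between -0.43 and -0.58 on the log2 scale in the 31 settings run, but the call is narrow. It was made in 7 of 15 fits that each left out 1 array. The call was lost without Rb1;p130 DKO arrays 1, 4, 5 or 8 or triple knockout arrays 1, 2, 3 or 4. The adjusted p was 0.159 with only the 15 arrays in the fit, 0.0768 with the replicate block and 0.0538 with a sex term.

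Serinc3, a multi-pass membrane protein named as a serine incorporator and known to restrict the infectivity of some retroviruses, showed a larger and less even difference. It read 24249, 20772, 4735, 18563, 19496, 22490, 18859, 21841 and 23546 in the Rb1;p130 DKO, and 17091, 4543, 3945, 5548, 3537 and 4547 in the triple knockout. The values fall into a high and a low range, and 1 array of each genotype sits in the range of the other: array 3 of the Rb1;p130 DKO is low and array 1 of the triple knockout is high. Rbl1 on the same arrays, 1739 and 98.5, is as their labels say. The change was -1.70 ± 0.27 (SE, 3.25-fold lower, limma adjusted p = 0.00312), and all 6 probe sets of the gene were lower at an unadjusted p under 0.05, with changes from -3.40 to -1.66. Without Rb1;p130 DKO array 3 the change was -1.94 (adjusted p = 7.32e-07), and without triple knockout array 1 it was -2.03 (adjusted p = 4.22e-06). With only the 15 arrays in the fit the adjusted p was 0.28, and with the replicate block it was 0.0593.

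The same split was present in the other genotypes. Over all 34 arrays Serinc3 ran from 3537 to 5610 on the 18 arrays labelled as lacking p107, apart from the 17091 above. It ran from 13918 to 24249 on the 16 arrays with p107, apart from the 4735. Ccne1 ran from 2298 to 3085 on the 18 and from 2981 to 4192 on the 16, so its ranges overlapped between 2981 and 3085. These ranges include the 15 arrays of the comparison and are a description. The second Ccne1 probe set did not split in this way. It read 7364 on the 1 p107 KO array against a mean of 3939 in wild type. Its mean was lower without p107 in the other backgrounds: 1794 against 2332 (p130 absent), 3329 against 4672 (Rb1 absent) and 2305 against 3584 (both absent).

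**Figure D2:**
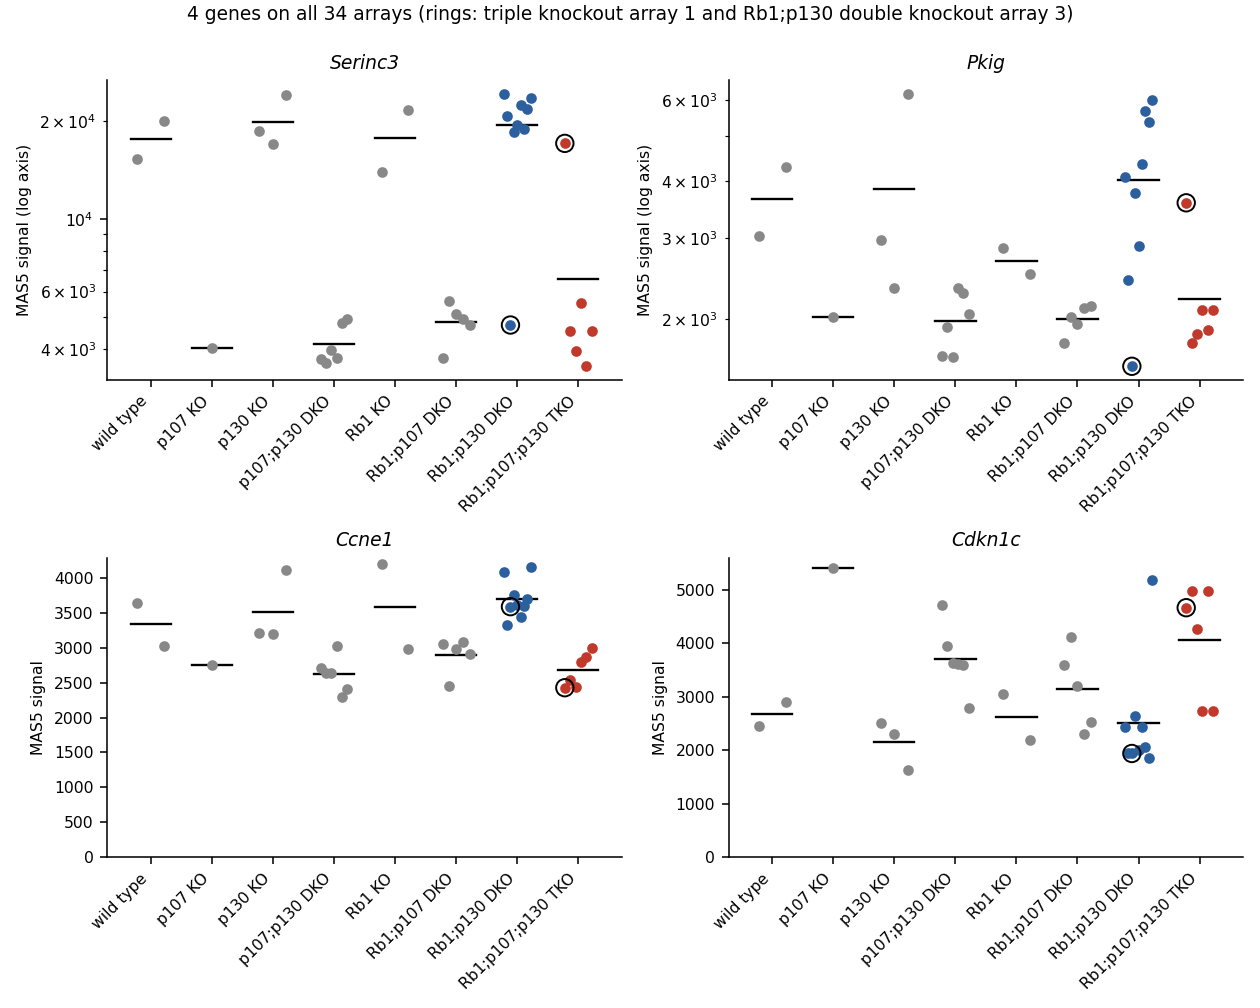
MAS5 signal of Serinc3 and Pkig (log axes) and of Ccne1 and Cdkn1c (linear axes from 0) on each of the 34 arrays by genotype; bars are group means and rings mark triple knockout array 1 and Rb1;p130 DKO array 3. The ringed arrays change places for Serinc3 (17091 and 4735) and Pkig (3582 and 1577) but not for Ccne1 (2426 and 3586).

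The promoters of the 3 called genes were read to show which carry letters of an E2F site. All 3 matched the RefSeq promoter table (GRCm38.p6; 250 bases before to 50 after the gene's start, each printed 5′ to 3′ on its own strand). The E2F-like letters searched were TTTGGCGC, TTTCCCGC, TTTCGCGC and TTTGCCGC, and the letters like the cell cycle homology region bound by MuvB were TTTGAA and TTCGAA, on both strands. TTCGAA is its own reverse complement, and no word lies inside another. Capitals mark a match, and 2 of the 3 promoters have none. The Rbl1 promoter, chr2:157204485-157204784 on the minus strand, holds TTTCGCGC. Those of Ccne1, chr7:38107441-38107740 on the minus strand, and Serinc3, chr2:163645094-163645393 on the minus strand, hold none of the letters searched.
Rbl1: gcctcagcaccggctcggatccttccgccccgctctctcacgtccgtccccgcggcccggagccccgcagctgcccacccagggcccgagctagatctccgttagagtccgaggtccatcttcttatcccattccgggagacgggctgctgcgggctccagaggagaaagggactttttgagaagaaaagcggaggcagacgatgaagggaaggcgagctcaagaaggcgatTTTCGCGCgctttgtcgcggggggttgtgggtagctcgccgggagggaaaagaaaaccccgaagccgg
Ccne1: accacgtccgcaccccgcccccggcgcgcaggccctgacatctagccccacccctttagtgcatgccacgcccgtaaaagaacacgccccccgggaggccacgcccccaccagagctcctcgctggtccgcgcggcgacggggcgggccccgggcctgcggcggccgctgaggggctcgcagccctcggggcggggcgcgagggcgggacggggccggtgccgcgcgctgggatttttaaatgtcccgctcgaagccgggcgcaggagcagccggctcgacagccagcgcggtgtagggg
Serinc3: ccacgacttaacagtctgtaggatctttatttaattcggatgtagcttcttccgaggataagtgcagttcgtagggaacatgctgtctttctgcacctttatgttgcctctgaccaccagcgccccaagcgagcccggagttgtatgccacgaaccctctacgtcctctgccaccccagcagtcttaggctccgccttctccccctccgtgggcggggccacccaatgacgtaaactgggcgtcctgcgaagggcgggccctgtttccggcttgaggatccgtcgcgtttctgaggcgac
Of the 32851 promoters in the table, 2.26% hold one of the E2F-like words and 19.2% one of the others. A match is a match of letters only.

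Serinc3 lies on chromosome 2, as Rbl1 does, 39 tested genes away in RefSeq gene order. The 5 nearest tested genes on either side of Rbl1 were Sla2, Ndrg3, Dsn1, Soga1 and Samhd1, and Rpn2, Manbal, Src, Blcap and Nnat. Samhd1, the dNTP hydrolase next to Rbl1, ran from 792 to 1010 in the Rb1;p130 DKO and from 881 to 1019 in the triple knockout (log2 change 0.06 ± 0.07, SE). None of the 10 passed, and their changes ran from 0.00 to 0.34. Of the 40 tested genes nearest to Rbl1, 20 on each side, 0 were called and 5 (12.5%) had an unadjusted limma p under 0.05, against 5.44% of all genes. In places 21 to 60 on the Serinc3 side, a window set after the values were seen, 1 of 40 was called and 8 (20%) had an unadjusted p under 0.05. With the array group block 5 of those 40 were called. On the opposite side the same window held 1 of 40 (2.5%). Around Rb1 on chromosome 14 and Rbl2 on chromosome 8, which both groups lack alike, the windows held 1 to 3 of 40.

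The genes of that stretch had changes in both directions. Pkig, an inhibitor of protein kinase A and the next tested gene after Serinc3, read 4076, 2435, 1577, 3767, 2881, 4363, 5667, 5363 and 6010 in the Rb1;p130 DKO and 3582, 1771, 1850, 2088, 1888 and 2096 in the triple knockout. Its low and high exceptions are the same arrays 3 and 1 as for Serinc3. The change was -0.79 ± 0.22 (SE, adjusted p = 0.366), and it was called at -0.96 under the array group block (adjusted p = 0.0108). Its dimmer probe set, with mean signals of 1944 and 790, had a change of -1.23 ± 0.19 (SE). The unadjusted p was 2.73e-07 in a limma fit of all probe sets. Both adjusted p-values given for Pkig are for its brighter probe set alone. Gm16316, in the next place, had a change of 1.46 ± 0.41 (SE, adjusted p = 0.374) from a low signal, 5.13 to 332 against 129.3 to 351. It was called with the array group block (1.73, adjusted p = 0.0453). Its highest Rb1;p130 DKO array was array 3 (332) and its lowest triple knockout array was array 1 (129.3), the same arrays as for Serinc3. Stk4, the Hippo pathway kinase MST1, ran from 2434 to 3367 and from 3118 to 4579 (0.43 ± 0.11, SE; adjusted p = 0.259), and 1 of its 3 probe sets had a change below 0. Mybl2, which joins MuvB to switch on mitotic genes and is itself a classical E2F target, ran from 1836 to 3393 and from 1458 to 2216. Its change was -0.41 ± 0.12 (SE, adjusted p = 0.506), and it also lies in this stretch, 29 places from Rbl1.

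Sdc4, the heparan sulfate proteoglycan syndecan-4, had the smallest p among the uncalled genes with a higher mean, and lies 52 places from Rbl1. It read 165, 1123, 1402, 965, 1119, 141.2, 165.4, 122.7 and 237 in the Rb1;p130 DKO and 1224, 1496, 1552, 2777, 1509 and 2432 in the triple knockout. Low values came from Rb1;p130 DKO arrays 1, 6, 7, 8 and 9, while arrays 2 to 5 reached into or near the triple knockout range. The highest Rb1;p130 DKO array was again array 3, and the lowest triple knockout array was again array 1. The change was 2.04 ± 0.46 (SE, adjusted p = 0.218). It was called in 4 of 31 settings: with the array group block (1.97, adjusted p = 0.0134), also with a sex term (1.97, adjusted p = 0.0167), within the third array group (2.90, adjusted p = 0.000426) and without Rb1;p130 DKO array 3 (2.26, adjusted p = 0.0496). Its second, dimmer probe set had a change of -0.40 ± 0.26 (SE), so the probe sets of the gene disagree in sign. Whether these differences along chromosome 2 come from sequence linked to the p107 allele was not tested.

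**Figure D3:**
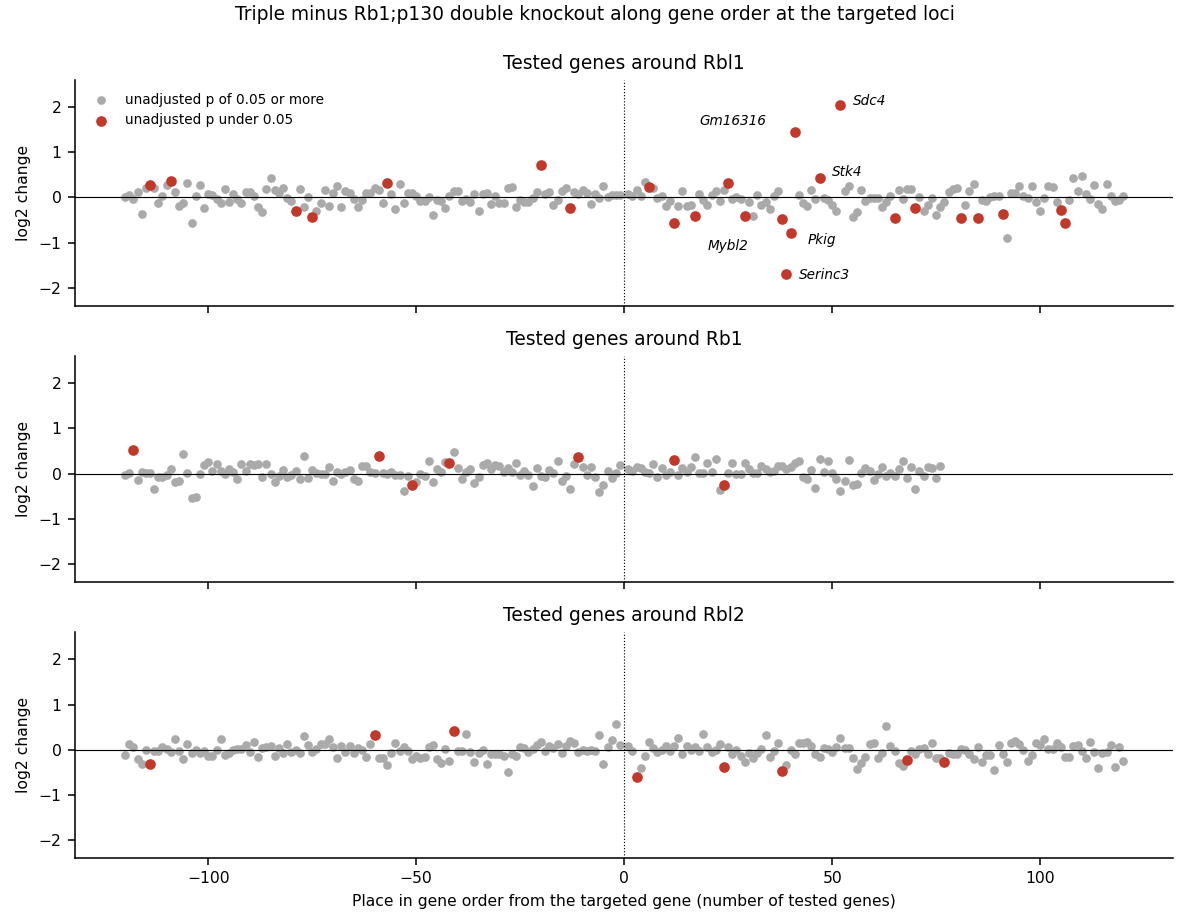
Log2 change, triple minus Rb1;p130 double knockout, of the tested genes around Rbl1, Rb1 and Rbl2 by place in gene order on their chromosomes (1 point per gene, red at an unadjusted p under 0.05, the targeted gene itself left out). Red points gather on 1 side of Rbl1, with Serinc3 at -1.70, Pkig at -0.79, Gm16316 at 1.46 and Sdc4 at 2.04.

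Among cell cycle regulators Ccne1 was the only call besides Rbl1. Of 10 tested G1 and S cyclins, their kinases and the phosphatase Cdc25a, 0 were called higher and 1 lower, with a median change of -0.08. Ccnd2, a D-type cyclin that starts the inactivation of pocket proteins, read 1996, 1237, 1288, 1968, 1582, 1471, 1316, 2135 and 2056 in the Rb1;p130 DKO and 961, 1044, 846, 1029, 1281 and 1233 in the triple knockout. Only triple knockout array 5 reached above the lowest Rb1;p130 DKO array. The change was -0.62 ± 0.14 (SE), the adjusted p was 0.218, and it was called in none of the 31 settings. All 7 Ccnd2 probe sets had changes below 0, 5 of them at an unadjusted p under 0.05. In a limma fit of all probe sets a dimmer one had a change of -0.85 ± 0.16 (SE, unadjusted p = 7.16e-06). The called Ccne1 probe set had an unadjusted p of 7.78e-06 in that fit. The adjusted p of 0.218 is for the brightest Ccnd2 probe set alone. Ccna2, cyclin A2, ran from 11976 to 16875 and from 13047 to 18305 (0.13 ± 0.09, SE).

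Cdkn1c encodes p57, a maternally expressed inhibitor of cyclin-dependent kinases. It read 2435, 1945, 1939, 2638, 2004, 2432, 2065, 1852 and 5186 in the Rb1;p130 DKO and 4661, 4964, 4270, 2729, 4966 and 2734 in the triple knockout. Apart from Rb1;p130 DKO array 9, every triple knockout array was above every Rb1;p130 DKO array. The change of 0.72 ± 0.18 (SE) was not called (adjusted p = 0.259). Without array 9 it was 0.86 and called (adjusted p = 0.0124), and it was also called with the replicate block (0.82, adjusted p = 0.0455), under the array group block (0.84, adjusted p = 0.0461) and by the fit with array weights (0.82, adjusted p = 0.034). Of the 5 tested inhibitors of cyclin-dependent kinases none was called. Cdkn1a (p21) and Cdkn2d (p19) had changes of 0.27 ± 0.17 and 0.06 ± 0.13 (SE).

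The other partners of the pocket proteins showed no call. In the list of pocket proteins and MuvB subunits, 1 of 10 tested was called, Rbl1, and the median change was 0.01. Lin54, the DNA-binding subunit of MuvB, had a change of 0.31 ± 0.12 (SE, adjusted p = 0.784). Of 10 tested E2F and DP genes none was called, or reached an unadjusted p under 0.05 in limma, and the median was -0.03. E2f4, the main E2F bound by p107 and p130, ran from 1233 to 3116 and from 1304 to 2917 (-0.30 ± 0.21, SE). E2f7, an E2F repressor and E2F target, and E2f3, an activator, had changes of 0.24 ± 0.13 and 0.16 ± 0.11 (SE).

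Genes of the processes that the E2F and DREAM system controls held no call in the lists for replication, nucleotide supply, mitosis, repair and histones. None of 41 tested replication genes was called and 1 (2.44%, against 5.44% of all genes) had an unadjusted limma p under 0.05. Their median was 0.03, and -0.01 with the array group block, and the 95% interval lay inside 1.5-fold for 40 of them and inside 2-fold for 41. Pold1, the catalytic subunit of DNA polymerase delta, had the largest change, 0.33 ± 0.15 (SE, adjusted p = 0.869). None of 8 tested nucleotide supply genes was called (median -0.02, and -0.06 with the block), with Rrm2, the small subunit of ribonucleotide reductase, at 23042 to 32923 and 24517 to 35554. Of 43 tested mitosis genes 35 (81.4%) had changes above 0, against 49.8% of all genes, with a median of 0.13, and 0 were called. At an unadjusted p under 0.05 were 4 (9.30%, against 5.44% of all genes). They were Kif20a (0.41 ± 0.13), Melk (0.47 ± 0.16), Mad2l1 (0.30 ± 0.14) and Cdc20 (0.26 ± 0.11, SE). Kif20a, a kinesin of cytokinesis, ran from 1058 to 2282 and from 1951 to 2603. With the array group block the mitosis median was 0.01. In the list for DNA repair and checkpoint genes 18 of 22 (81.8%) had changes above 0, with a median of 0.15 and 0.06 with the array group block, and none was called. Exo1, a mismatch repair exonuclease, had a change of 0.20 ± 0.09 (SE). Of 8 tested histone and histone chaperone genes none was called (median 0.09, and -0.01 with the block). None of 17 tested p53 targets (median -0.04), 12 BCL2 family genes (median -0.08) or 15 immediate-early genes (median -0.03) was called. With the array group block these medians turned to 0.06, 0.05 and 0.13. Over the 27 lists the block turned the sign of 6 medians, those of the replication, histone, p53 target, BCL2 family, immediate-early and iron lists.

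Red cell genes make up much of the RNA of this tissue, and no member of their lists was called with equal array weights and no block. Of 35 tested erythroid maturation genes 13 (37.1%, against 49.8% of all genes) had changes above 0 and 22 below. The median was -0.02, and -0.15 with the array group block. Xpo7, an exportin of maturing red cells, ran from 11126 to 15097 and from 9195 to 13688. Its change was -0.25 ± 0.14 (SE, adjusted p = 0.888), and -0.46 with the block, where it was called (adjusted p = 0.0453). The 95% interval in the fit without the block lay inside 1.5-fold for 33 of the 35. At an unadjusted p under 0.05 were 3 (8.57%, against 5.44% of all genes), all below 0. They were Epor, the erythropoietin receptor (-0.41 ± 0.14), Kel, a blood group glycoprotein (-0.26 ± 0.10), and Ube2o, the ubiquitin ligase that clears proteins from reticulocytes (-0.42 ± 0.18, SE). Epor ran from 2446 to 4586 in the Rb1;p130 DKO and from 2174 to 4000 in the triple knockout, where the next highest array read 2673. Of 13 heme synthesis genes 10 had changes below 0 and 23.1% above, against 49.8% above among all genes. Their median was -0.09, and -0.16 with the block. Ppox, a late enzyme of the pathway, had a change of -0.33 ± 0.11, Slc25a38, the mitochondrial glycine carrier, -0.27 ± 0.09, and Tmem14c, a porphyrin transporter, -0.19 ± 0.09 (SE, adjusted p = 0.589, 0.635 and 0.881). None of 11 genes for iron uptake and storage was called (median 0.01, and -0.06 with the block).

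Among the embryonic globins, made by the primitive red cells that precede the definitive ones, Hba-x was unevenly spread over the Rb1;p130 DKO arrays. Hba-x, the zeta globin, read 8719, 10029, 8648, 9577, 8851, 26480, 17719, 9174 and 21460 there and 23273, 21177, 20012, 25817, 26051 and 17099 in the triple knockout. The 3 high Rb1;p130 DKO arrays, 6, 7 and 9, belong to the third array group, as does array 8, and the other 6 arrays lie below every triple knockout array. The change was 0.85 ± 0.24 (SE, adjusted p = 0.366), and 1.00 with array weights, where it was called (adjusted p = 0.0464). Within the third array group, 3 triple knockout against 4 Rb1;p130 DKO arrays, it was 0.30 (adjusted p = 0.86). Hbb-bh1, an embryonic beta-like globin, ran from 4220 to 12049 and from 8454 to 10906 (0.49 ± 0.18, SE; adjusted p = 0.768). Hbb-y, another embryonic beta-like globin, had a change of only 0.12 ± 0.11 (SE, adjusted p = 0.936). Of 5 tested globins 0 were called, and the median was 0.22. The series design allows ages that differ by a day, and age was not tested.

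Metabolic and stress lists held no call either. The median of 25 mitochondrial respiration genes was -0.0045, and -0.08 with the block, with all 25 intervals inside 1.5-fold. Of 21 hypoxia response genes 16 (76.2%) had changes above 0, against 49.8% of all genes, with a median of 0.06. At an unadjusted limma p under 0.05 were 3 (14.3%, against 5.44% of all genes). They were Adm, adrenomedullin (0.54 ± 0.22), Egln3, an oxygen-sensing prolyl hydroxylase (0.45 ± 0.18), and Hk2, hexokinase (0.29 ± 0.13, SE). The median of 16 interferon response genes was 0.06. Rsad2, viperin, had the widest change among them, from 468 to 2005 against 417 to 1991 (-0.67 ± 0.36, SE).

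Markers of the cell types in the liver were compared to describe its make-up. The mean log2 value of the 35 erythroid genes ran from 12.67 to 13.16 on the Rb1;p130 DKO arrays and from 12.57 to 13.15 in the triple knockout. That of the 22 hepatocyte genes ran from 11.95 to 12.64 and from 12.17 to 12.70, so both groups carry the markers of fetal liver and overlap. None of the 22 hepatocyte genes was called (median 0.03). Of 18 stellate and mesenchymal genes 14 (77.8%) had changes above 0, against 49.8% of all genes. Their median was 0.33, and 0.37 with the array group block. No member was called, and 5 (27.8%) had an unadjusted p under 0.05, all above 0, against 5.44% of all genes. Pdgfrb, the platelet-derived growth factor receptor of these cells, read 488, 490, 347, 442, 302, 350, 310.0, 258 and 667 in the Rb1;p130 DKO and 538, 761, 518, 665, 655 and 823 in the triple knockout. Only Rb1;p130 DKO array 9 reached into the triple knockout range. Its change was 0.69 ± 0.16 (SE, adjusted p = 0.218), and 0.78 without that array, where it was called (adjusted p = 0.0283). Fbln1, an extracellular matrix protein, Lum, a collagen-binding proteoglycan, Lhx2, a stellate cell transcription factor, and Bgn, another matrix proteoglycan, had changes of 0.64 ± 0.18, 0.59 ± 0.25, 0.49 ± 0.19 and 0.47 ± 0.20 (SE). The 4 members with changes below 0 were Tagln (-0.40 ± 0.28) and Acta2 (-0.28 ± 0.29), proteins of contractile cells, Rgs5, a pericyte gene (-0.16 ± 0.27), and Ngfr, a neurotrophin receptor (-0.15 ± 0.23, SE). The summed level of the list overlapped: its mean log2 value ran from 8.66 to 9.96 in the Rb1;p130 DKO, with a median of 8.95, and from 9.003 to 9.57 in the triple knockout, with a median of 9.34.

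In the neutrophil and granule list 14 of 15 tested genes had changes below 0 and 6.67% above, against 49.8% above among all genes. The list median was -0.21, -0.23 with the array group block and -0.37 without Rb1;p130 DKO arrays 8 and 9. None was called, and Fcnb, a secreted lectin of granules, was the 1 with an unadjusted p under 0.05 (-0.76 ± 0.31, SE). The list varied widely inside each genotype, from 10.19 to 11.73 and from 10.05 to 11.58 in mean log2 value. Of 17 macrophage genes 13 (76.5%) had changes above 0 (median 0.06), against 49.8% of all genes. None was called, and 2 (11.8%, against 5.44% of all genes) had an unadjusted limma p under 0.05. They were Csf1r, the receptor for the macrophage growth factor (0.40 ± 0.18), and Maf, a macrophage transcription factor (0.34 ± 0.12, SE). Their adjusted p-values were 0.881 and 0.635. The 4 members with changes below 0 were Lyz2 (-0.18 ± 0.23), Spic (-0.11 ± 0.19), C1qc (-0.09 ± 0.18) and Cd68 (-0.04 ± 0.13, SE). With Rb1 present Csf1r gave -0.14 ± 0.24 and Maf 0.16 ± 0.16 (SE). None of 16 megakaryocyte and platelet genes was called, nor of 17 stem and progenitor, 6 lymphoid and 15 endothelial genes, with medians of 0.14, 0.11, 0.03 and 0.09, and 0.02, 0.05, 0.11 and 0.04 with the array group block. In all, the 27 lists had 464 members on the array, of which 443 passed the filter on low signal and 2 were called, and 25 lists held no call.

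**Figure D4:**
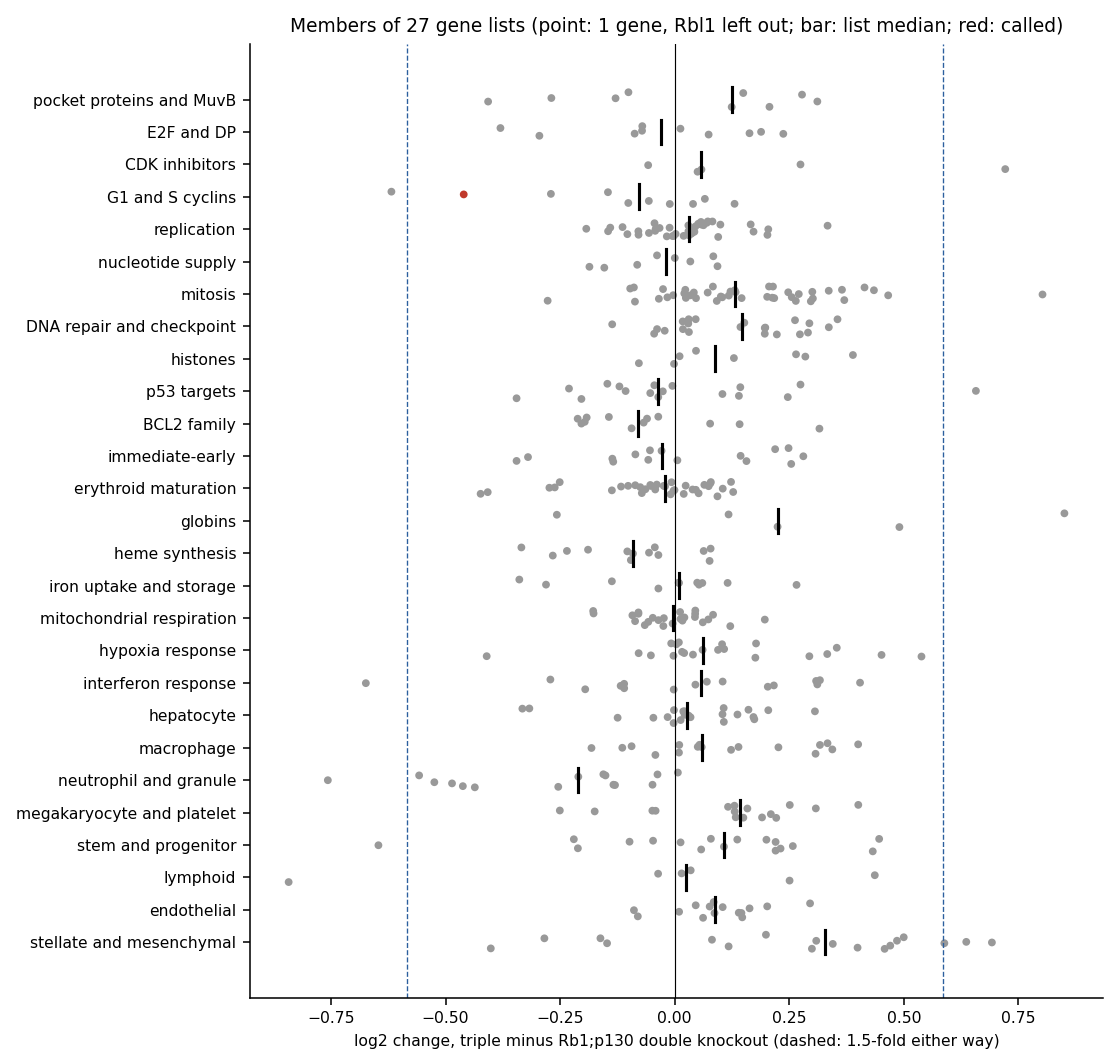
Log2 change, triple minus Rb1;p130 double knockout, of every tested member of 27 gene lists (1 point per gene, Rbl1 left out; black bars are medians of the points; dashed lines mark 1.5-fold). Ccne1 at -0.46 is the only called point; the stellate and mesenchymal list has the highest median, 0.33, and the neutrophil and granule list the lowest, -0.21.

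Outside the lists, the genes with the smallest p-values that did not pass were of mixed kinds. Zfp318, a zinc finger protein known from B cells, ran from 367 to 609 in the Rb1;p130 DKO and from 538 to 827 in the triple knockout (0.46 ± 0.11, SE; adjusted p = 0.218). Mef2c, a transcription factor of muscle and blood cells, ran from 458 to 870 and from 718 to 946 (0.49 ± 0.12, SE; adjusted p = 0.233), and was called with array weights (0.60, adjusted p = 0.00904) and without Rb1;p130 DKO array 9 (0.56, adjusted p = 0.0283). Ldlrad3, a receptor of the low density lipoprotein receptor family, Ipo4, an importin, Mb21d2, and Gimap4, a lymphocyte GTPase, had changes of 0.69, 0.66, 0.77 and 0.40. Epcam, the epithelial adhesion molecule, ran from 79.2 to 290.5 and from 14.97 to 106.8 (-1.02 ± 0.22, SE; adjusted p = 0.169). F9, coagulation factor IX of hepatocytes, ran from 57.2 to 134 and from 25.5 to 63.3 (-0.93 ± 0.23, SE; adjusted p = 0.233). Plk5, a polo-like kinase, Trank1, Pnliprp1, a lipase-related protein, and Samd11 had changes of -1.18, -0.93, -0.78 and -0.69. Plk5, Trank1, F9, Epcam and Mb21d2 are dim. Mb21d2 ran from 33.1 to 178.6 in the Rb1;p130 DKO and from 132.2 to 258.4 in the triple knockout. The dimmer Epcam probe set had a change of -0.37 ± 0.37 (SE). F9 passed the filter of 100 through Rb1;p130 DKO arrays, p130 KO array 2 (177.9) and Rb1 KO array 2 (144.5). No triple knockout array reached 100 for F9. Plk5 ran from 82.8 to 248.1 in the Rb1;p130 DKO and from 13.2 to 105.5 in the triple knockout, Trank1 from 30.3 to 110.3 and from 2.8 to 56.4. Trank1 passed the filter of 100 only through Rb1;p130 DKO array 8 (110.3) and p130 KO array 2 (110.6). Epcam was called without Rb1;p130 DKO array 7 (-1.11, adjusted p = 0.0418) or triple knockout array 6 (-1.15, adjusted p = 0.0484), Trank1 without triple knockout array 3 (-1.12, adjusted p = 0.0388) and Pnliprp1 without triple knockout array 5 (-0.97, adjusted p = 0.0124). With the array group block Zfp318 and Epcam were called, at 0.52 and -1.06 (adjusted p = 0.0453 and 0.0461). The 17 calls under that block were Rbl1, Serinc3, Ccne1, Pkig, Sdc4, Gm16316, Ttpal, Cdkn1c, Xpo7, Zfp318, Epcam, Acvr2b, Trps1, Peg3, Nfib, Bnc2 and Prr15l. Apart from Rbl1, 5 of the 16 lie on chromosome 2, which holds 7.998% of the tested genes with a known place (1016 of 12703).

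The loss of p107 with Rb1 present gave a second, separate set of values for the same genes. Of 12723 genes, 3 were called between 6 p107;p130 DKO and 3 p130 KO arrays (0.0236%), all lower: Rbl1 (-3.90 ± 0.24), Serinc3 (-2.25 ± 0.37) and Rdh5, a retinol dehydrogenase (-1.01 ± 0.19, SE; adjusted p = 0.0244). Without p130 KO array 3 the count was 1, and with a sex term it was also 1. Xist marked 3 of 3 p130 KO and 1 of 6 p107;p130 DKO arrays. Serinc3 and Ccne1 were also tested alone in these 9 arrays, since they are no part of the first contrast. Serinc3 gave -2.25 and Ccne1 gave -0.41 on the log2 scale. Both had a two-sided exact permutation p of 0.0238 (6 and 3 arrays, Benjamini-Hochberg 0.0238 over 2 tests), the smallest this design allows. Both genes are lower in 6 of 6 p107;p130 DKO arrays than in any p130 KO array. Ccne1 was not called across all genes there (adjusted p = 0.885).

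Cdkn1c gave 0.79 ± 0.25 with Rb1 present and 0.72 ± 0.18 without, Pdgfrb 0.67 ± 0.22 and 0.69 ± 0.16, Mef2c 0.44 ± 0.16 and 0.49 ± 0.12, and Mybl2 -0.48 ± 0.17 and -0.41 ± 0.12 (SE). Other genes differed more between the 2 backgrounds. Ccnd2 gave 0.02 ± 0.19 with Rb1 present against -0.62 ± 0.14 without, Epcam 0.14 ± 0.30 against -1.02 ± 0.22, Hba-x -0.01 ± 0.32 against 0.85 ± 0.24, and Rdh5 -1.01 ± 0.19 against -0.20 ± 0.14 (SE). The difference itself was tested as an Rb1 by p107 interaction. No gene passed in limma (0 of 12723, 0%), and 209 (1.64%) had an unadjusted p under 0.05. That share is smaller than the threshold of 0.05 would give with no interaction at all. The interaction was 0.80 for Rdh5, -1.16 for Epcam, -0.64 for Ccnd2 and 0.86 for Hba-x, each among those 209 genes. These genes were picked for their values in the contrasts that the interaction compares. Their interaction values are therefore inflated by that choice and are a description only. For Ccne1 the interaction was -0.05, with a 95% interval from -0.35 to 0.25.

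**Figure D5:**
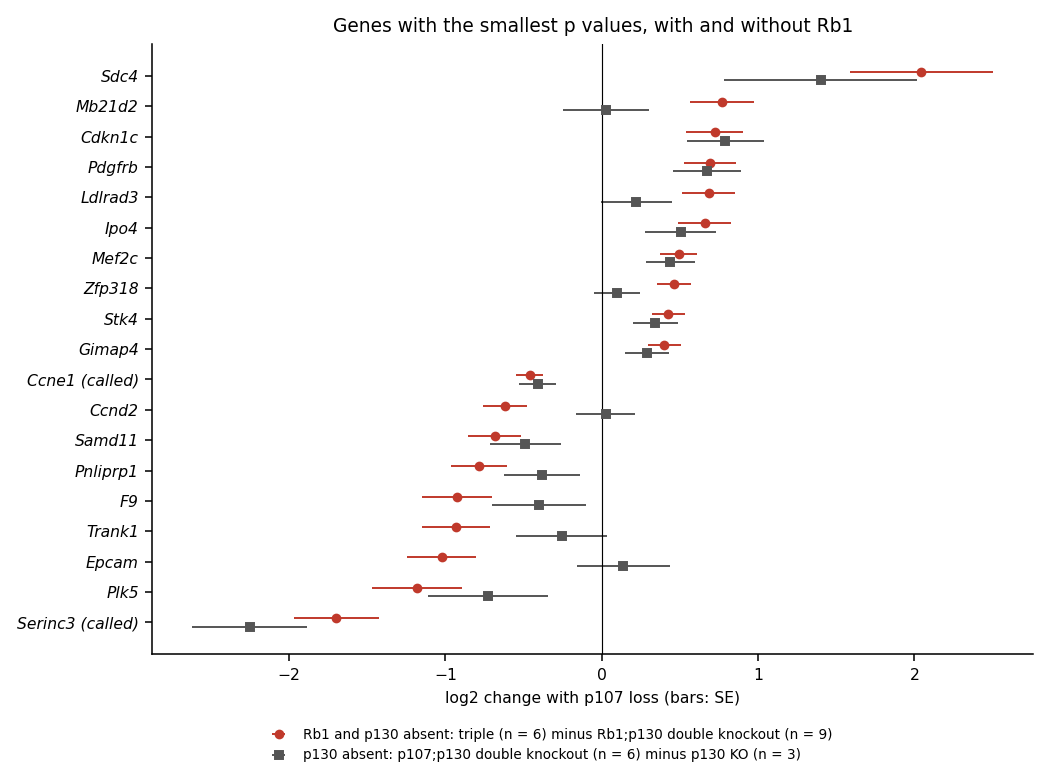
Log2 change with p107 loss of the called genes other than Rbl1 and of the genes with the smallest p-values in either direction, with Rb1 absent (circles, 6 against 9 arrays) and with Rb1 present (squares, 6 against 3 arrays); bars are SE. Ccne1 lies at -0.46 and -0.41, Cdkn1c at 0.72 and 0.79, and Ccnd2 at -0.62 and 0.02.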

How the data were processed

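RNA was labelled with biotin and hybridised to Affymetrix one-colour arrays, per the labels. The deposited intensity values are linear signals per probe set, computed by the authors in GCOS 1.4 (MAS5), per the submitters' processing notes. Detection calls and scan dates were not used here. Of 45037 probe sets, 34945 had 1 gene symbol, 932 several (left out) and 9160 none; symbols came from the platform annotation, updated through RefSeq (GRCm38.p6). Each array was rescaled so that its mean, trimmed by 2% at each end, was 500, and log2(signal + 32) was taken. A gene needed a signal of 100 or more on 2 or more arrays, which kept 12723 of 18193 for limma 3.58.1 in R 4.3.3 (lmFit, contrasts.fit, eBayes with a trend, two-sided): 1 mean per genotype over all 34 arrays, so the 8 genotypes share 1 spread. The script was tested on simulated data. For arrays, their number limits the precision.

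The replicate numbers do not pair the samples: deviations of same-numbered arrays from their genotype means correlated at -0.13 to 0.19. The alternatives tried were another pseudocount, filter, scaling, probe set rule, eBayes setting, array weights, blocks, a sex term and left-out arrays. Named genes are those called, the 10 smallest p-values per direction, up to 3 members of each of 27 hand-written lists (more where roles needed it) and the 5 neighbours of Rbl1 on each side; Pkig, Gm16316, Stk4, the genes without overlap and those called under a block were chosen after their values were seen. The comparison and the lists were chosen with earlier results of these data known.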

Additional observations from a re-analysis of the deposited data

Results flagged for a closer look

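Each of 125 named genes was searched in both genotypes for an array standing apart from the rest of its group by Dixon's criterion. Of 250 checks 16 met it; chance alone gives about 1 in 20. Serinc3 stood apart on triple knockout array 1 (17091.2, the others 3537 to 5548) and on Rb1;p130 DKO array 3 (4735.5, the others 18563 to 24249). Triple knockout array 1 was also the highest for Pkig (3582.2, the others 1771 to 2096) and Ttpal (487.2, the others 296 to 356), both neighbours of Serinc3 on chromosome 2.

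Rb1;p130 DKO array 9 stood apart 5 times: highest for Cdkn1c (5185.9, the others 1852 to 2638), Ndufs3 (6737.4), Blcap (366.3) and Nnat (919.3, the others 170 to 363), and lowest for Cdkn2d (5046.4, the others 8495 to 11512). Triple knockout array 5 was highest for E2f4 (2917.1), Junb (318.9) and Epor (3999.6). Single cases were Phlda3 on Rb1;p130 DKO array 2 (highest, 1005.2), Mrc1 on array 8 (lowest, 519.1), Mllt3 on array 7 (highest, 3360.1) and Ahsg on triple knockout array 3 (lowest, 3591.9).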

How the results depend on the processing

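The count of 3 calls between the triple and the Rb1;p130 double knockout became 8 with array weights, 1 with only the 15 arrays fitted, and 17 with the array group block, also with a sex term added (a setting chosen after the data were seen). Leaving out 1 array gave 2 to 8 calls. With Rb1 present the count of 3 became 1 with a sex term and 1 with the array group block and sex term; leaving out 1 array gave 1 to 4. The interaction count of 0 ranged from 0 to 1 when 1 array was left out, the 1 without p130 KO array 2. With the replicate block the counts were 2, 2 and 0; same-numbered arrays are not paired, and the block loses the calls of Serinc3 and Ccne1 and adds Cdkn1c. Rbl1 was called in all 31 settings, Serinc3 in 28 and Ccne1 in 16. The exceptions for Serinc3 were the fit of the 15 arrays alone, the replicate block and the third array group alone. Ccne1 had an adjusted p of 0.571 with the mean of its probe sets and 0.0747 without the eBayes trend. Within the third array group, 3 against 4 arrays, 2 genes were called. The 20 genes named first kept their sign in every setting; among all 125 named genes 62 of 3852 values changed sign, none of them called. The cause of these changes was not tested. Fewer arrays in a fit leave less precision, and dim genes near the filter have the least.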
